A study of Mus musculus with 6 samples.

Results

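Cell cycle regulators were followed here in mouse germ cells made in culture: the cyclins, the cyclin-dependent kinases (CDKs), their inhibitors, the RB and E2F proteins, and the factors of DNA replication and mitosis. The members are 42 genes taken by name. They were found on the arrays by gene symbol, with Cdk1 listed under its older symbol Cdc2a, and 67 of their 69 probes were kept. All 42 had a probe well above background on all 6 arrays, so none was lost to the filter on dim probes, and they stand among 20220 genes tested. A gene with several kept probes was represented by its brightest one, which applied to 18 members, while 24 had a single probe.

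Dazl encodes a germ cell protein that binds RNA. The study knocked it down and compared the cells with cells carrying a control vector by Agilent 1-colour arrays of total RNA. All groups share the same start: male embryonic stem (ES) cells of mixed C57BL/6 and 129SV background, with a green reporter driven by Oct4 and a vector marked with tdTomato, differentiated without feeder cells and sorted for both colours. Oct4 (Pou5f1) is active in pluripotent cells as well as in germ cells, so the sort does not by itself part them. Control cells gave 1 array at day 9 and 1 at day 12 of differentiation, and knockdown cells gave 2 arrays at each day, 1 for each of 2 hairpins (hairpin 1 and hairpin 2), which makes 2 control and 4 knockdown arrays. The labels do not say that the arrays came from separate cultures, so the spread behind each p-value is only that between the 6 arrays and may be technical.

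A cell commits to division in G1, when D-type cyclins with CDK4 or CDK6 begin to phosphorylate RB and release E2F factors, and cyclin E with CDK2 completes the step. E2F then switches on genes of DNA replication, and cyclin A and cyclin B with CDK1 carry the cell through G2 into mitosis, where the anaphase-promoting complex with CDC20 ends the cycle. Pluripotent stem cells and early germ cells are known for a short G1 with high activity of cyclin-dependent kinases, and germ cells of the male embryo later stop in G1.

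Levels are log2 signals with the 75th percentile of each array set to 0, so a value of 1 is a signal at 2-fold that percentile. A level of one probe is not comparable with that of another probe, and all comparisons run across arrays for the same probe. Spots repeated 10 times on each array showed how well a level was read: the median SD was 0.08 for Ccnd1, 0.05 for Cdkn2a, 0.06 for Rb1 and 0.07 for Pcna. On each array 70.3 to 73.3% of all probes were well above background. Each day was hybridised on its own slide, with control, hairpin 1 and hairpin 2 at the same positions of both slides. Effects of day and of slide therefore cannot be told apart, nor can those of vector and of position.

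Dazl itself read 1.32 on the control array and −3.05 and −2.28 on the hairpin arrays at day 9, and 2.58, −2.24 and −1.84 at day 12. The difference was −4.30 ± 0.28 (SE; limma, adjusted p = 0.0864, and 0.0104 with the vector as a block), and it has the direction of the labels. Knockdown and control are different vectors, so the block takes the spread between the 2 hairpins out of the error. For the knockdown its p-values therefore hold only for these vectors. The hairpin 2 array of day 9 stood apart from the rest: it was the highest or the lowest of the 6 arrays for 55.3% of all genes and for 24 of the 42 members (57.1%), against 26.2 to 35.5% of all genes for each other array. Without it 7 of the 42 knockdown differences changed sign (Cdk4, Cdkn1a, Cdkn2a, E2f1, Gmnn, Aurkb and Bub1b), as did 9 of the 42 day differences (Ccnd2, Cdkn2a, Rbl2, E2f1, Ccne2, Cdc6, Cdt1, Mcm2 and Mcm5). No member was called in either comparison, with or without it. Markers of germ cells and of other cell types also differed between knockdown and control, with none called in the fit without the block (limma). With the vector as a block 2 endoderm markers, 1 neural marker and 1 germ cell marker (Dazl) were called, beside 0.0989% of all genes. Of 12 germ cell markers 11 were measured, all well above background on every array. In the knockdown 9 of the 11 were lower (median −0.25 on the log2 scale, beside −0.0014 for all genes). The 9 include Dazl itself, the target of the hairpins, whose direction was set by the design. Prdm14, a defining gene of early germ cells, was not measured. Of 10 pluripotency markers 9 were higher (median 0.19). Fibroblast markers, which feeder cells would carry, were higher for 12 of 12 genes (median 0.74), 9 of them well above background on all arrays, and endoderm markers for 10 of 11 measured (median 0.83; Ttr was not measured). Trophectoderm and neural markers were higher for 6 of 8 genes each (medians 0.16 and 0.28). The trophectoderm markers did not follow both hairpins. At day 9 and day 12 their median difference from the control was 0.53 and 0.38 with hairpin 1. With hairpin 2 it was −0.52 and −0.16. Summed over a list, in units of the 75th percentile, the levels were 107 to 229 on knockdown and 201 to 268 on control arrays for germ cells, 736 to 862 and 611 to 793 for pluripotency, 3.88 to 8.31 and 2.36 to 5.71 for fibroblasts, 20.9 to 31.3 and 17.4 to 22.8 for endoderm, 148 to 285 and 170 to 198 for trophectoderm, and 4.74 to 6.02 and 3.42 to 3.77 for neural cells. Such a sum mostly follows its brightest probe, Stra8 with 53.8 to 76.8% of the germ cell sum and Dppa5a with 79.6 to 84.4% of the pluripotency sum. The part of these other cells in the results was not tested.

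**Figure D1:**
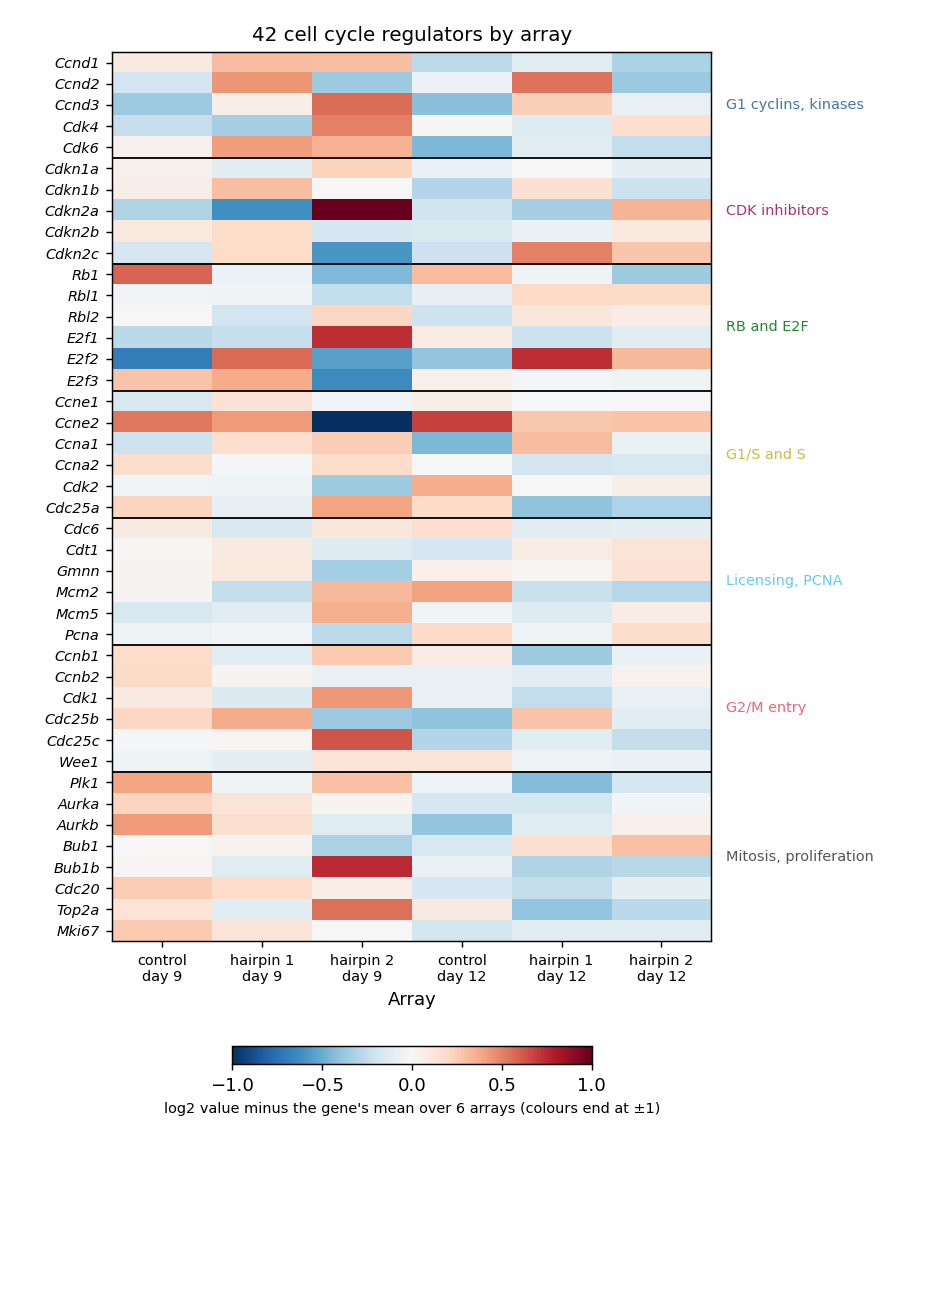
Each row is 1 of the 42 members and each column 1 of the 6 arrays; colour is the log2 value minus the mean of the gene over the arrays, with colours ending at ±1, and members are grouped by phase. The hairpin 2 array of day 9 holds the strongest colours and is at an end of the 6 arrays for 24 members.

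The first question was whether loss of Dazl moved the cell cycle genes. Differences between knockdown and control were small and ran both ways: 22 members were higher and 20 lower in the knockdown arrays, with a median difference of 0.03 on the log2 scale beside −0.0014 for all genes and 50.2% of all genes lower. No member was called at an adjusted p under 0.05 (limma, Benjamini-Hochberg over 20220 genes), where 0.0% of all genes were called. At an unadjusted p under 0.05 there were 4 members, 3 higher (Ccnd3, E2f2 and Ccna1) and 1 lower (Rb1), beside 9.95% of all genes, so that the share of members was close to the background. The lowest adjusted p of a member was 0.367, and 0.169 with the vector as a block, where 0.0989% of all genes were called and again no member. The precision allowed a bound: for 37 of the 42 members the 95% interval of the difference lay within 2-fold in either direction, and 5 reached past it (Ccnd3, Cdkn2a, Rb1, E2f2 and Ccne2). Arrays of both kinds overlapped for 38 members and did not for Ccnd3, Rb1, Ccne2 and Ccna1, beside 19.8% of all genes whose groups did not overlap. Because the samples are bulk RNA, fewer cells of a type and less RNA per cell cannot be told apart in any of these values.

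**Figure D2:**
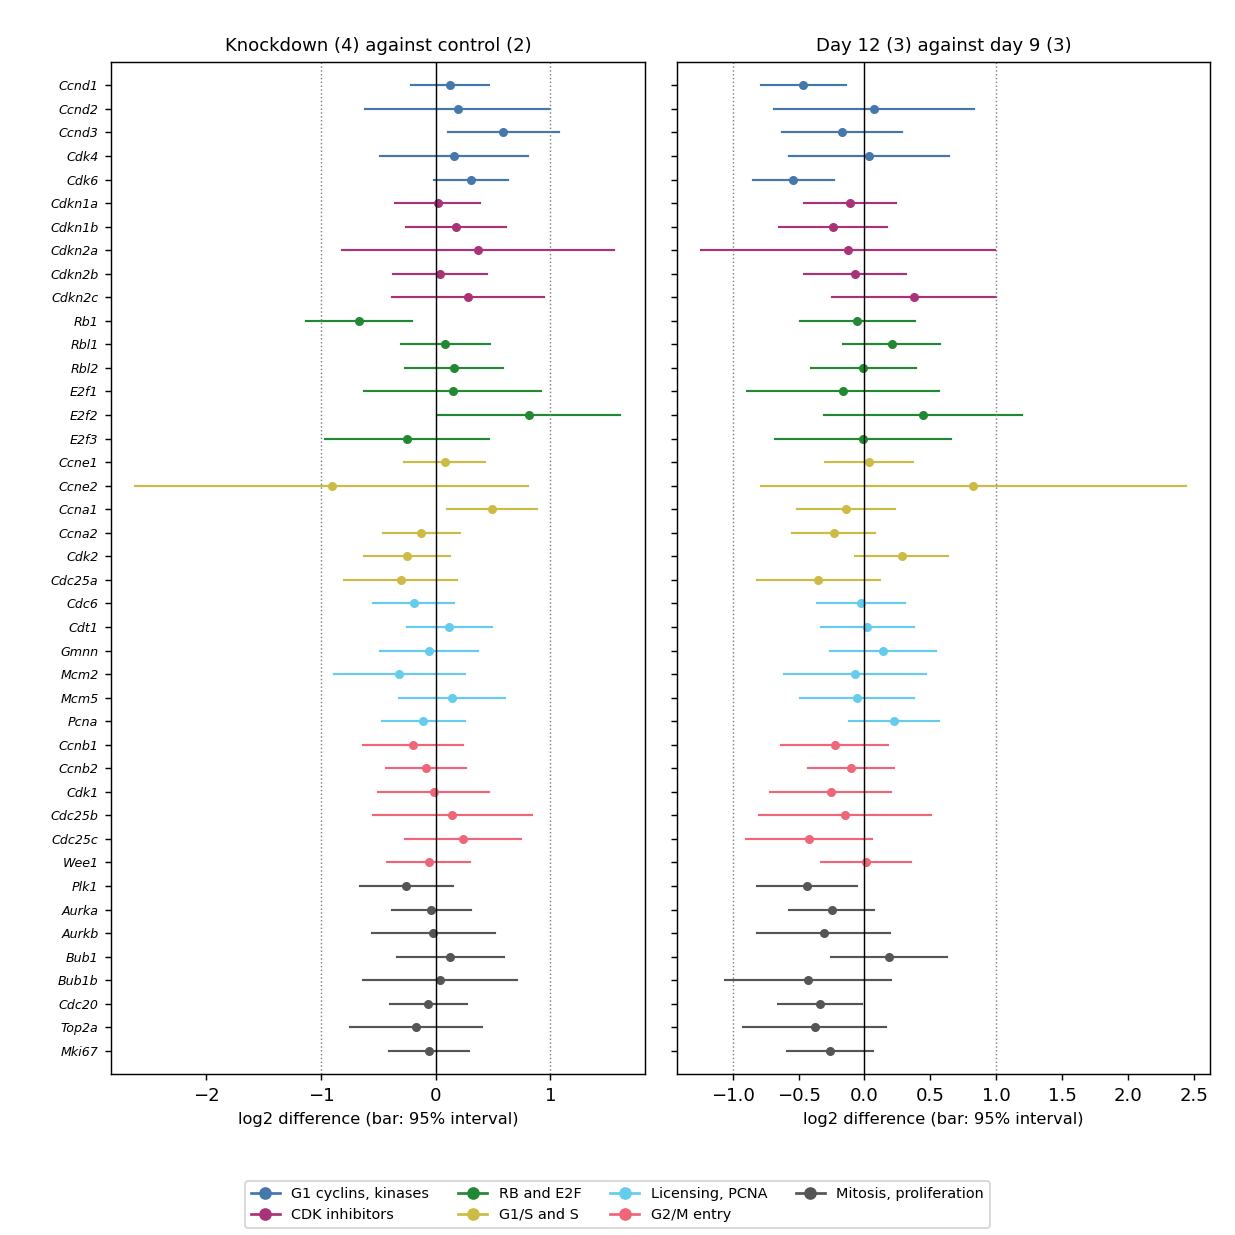
Each point is the log2 difference of 1 member with its 95% interval, for 4 knockdown against 2 control arrays (left) and for 3 arrays of day 12 against 3 of day 9 (right); dotted lines mark 2-fold and colours mark the phase list. Most intervals cross 0, and Ccne2 has the widest interval in both panels.

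The D-type cyclins and their kinases open G1. All 5 members of this group (Ccnd1, Ccnd2, Ccnd3, Cdk4 and Cdk6) had a difference above 0 in the knockdown, with a median of 0.19, and none was called; without the hairpin 2 array of day 9 Cdk4 turned to −0.04 and 4 of the 5 were above 0. Ccnd3, which encodes cyclin D3, read 3.96 on the control array, 4.38 with hairpin 1 and 4.88 with hairpin 2 at day 9, and 3.91, 4.56 and 4.25 at day 12. Every knockdown array was above both control arrays. The mean was 4.52 ± 0.27 (SD, n = 4) in the knockdown and 3.93 ± 0.04 (SD, n = 2) in the control, a difference of 0.59 ± 0.20 (SE; limma, adjusted p = 0.437). Ccnd2, encoding cyclin D2, did not follow both hairpins. It read 0.85, 1.48 and 0.69 at day 9 and 0.98, 1.58 and 0.67 at day 12, each time for control, hairpin 1 and hairpin 2. Hairpin 1 was above and hairpin 2 below the control at both days, so the knockdown arrays lay on both sides of the control (difference 0.19 ± 0.33 SE). Ccnd1 differed by 0.13 ± 0.14, Cdk4 by 0.16 ± 0.26 and Cdk6 by 0.31 ± 0.13 (limma, adjusted p = 0.812, 0.894 and 0.522). The other probes of Cdk6 gave 0.03 and −0.36, so the direction of this kinase depended on the probe. With the probes of each gene averaged, 4 of the 5 genes of the group were higher.

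The CDK inhibitors hold the cycle back: Cdkn1a (p21) and Cdkn1b (p27) bind cyclin-CDK complexes, and Cdkn2a, Cdkn2b and Cdkn2c act on CDK4 and CDK6. All 5 differences were above 0, with a median of 0.17, and none was called. Cdkn1a differed by 0.02 ± 0.15, Cdkn1b by 0.17 ± 0.18 and Cdkn2b by 0.04 ± 0.17. The other probes of Cdkn1b gave −0.34 and −0.21, so its direction depended on the probe. Cdkn2a, the gene of p16 and p19ARF, read −2.01, −2.33 and −0.62 at day 9 and −1.91, −2.04 and −1.37 at day 12 for control, hairpin 1 and hairpin 2. Only hairpin 2 was above the control, at both days, while hairpin 1 was below it. The difference was 0.37 ± 0.48 (SE; limma, adjusted p = 0.850), and without the hairpin 2 array of day 9 it turned to −0.02. Cdkn2c (p18) read −1.57, −1.22 and −1.99 at day 9 and −1.62, −0.90 and −1.12 at day 12, a difference of 0.28 ± 0.27 with both probes of the gene within 0.25 to 0.28. Directions in this group were not firm: 3 of the 5 were above 0 without the hairpin 2 array of day 9. At day 9 alone 3 of the 5 were above 0, and at day 12 alone all 5. The count was 4 of 5 with normexp background correction or with probes averaged.

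RB and its relatives restrain E2F. Rb1 had the lowest adjusted p of the members in the knockdown comparison. It read 2.21 on the control array, 1.57 with hairpin 1 and 1.19 with hairpin 2 at day 9, and 1.94, 1.59 and 1.27 at day 12. All 4 knockdown arrays were below both controls, and hairpin 2 was the lowest at each day. The mean was 1.41 ± 0.20 (SD, n = 4) in the knockdown and 2.08 ± 0.19 (SD, n = 2) in the control, a difference of −0.67 ± 0.19 (SE; 95% interval −1.13 to −0.21; limma, adjusted p = 0.367), or 1.59-fold lower. A dim second probe of Rb1, well above background on 2 arrays, gave −0.61 ± 0.42. The RB relatives Rbl1 (p107) and Rbl2 (p130) differed by 0.08 ± 0.16 and 0.16 ± 0.17.

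E2f2, an activating E2F, had the largest positive difference of the members. It read 0.12, 1.38 and 0.28 at day 9 and 0.43, 1.55 and 1.14 at day 12 for control, hairpin 1 and hairpin 2. Hairpin 1 was above the control by 1.26 at day 9 and 1.13 at day 12, but hairpin 2 at day 9 was only 0.15 above it and below the control of day 12, so the groups overlapped. The difference was 0.81 ± 0.33 (SE; limma, adjusted p = 0.493, and 0.180 with the vector as a block). E2f1 read 0.66, 0.71 and 1.67 at day 9 and 1.01, 0.72 and 0.83 at day 12, with the hairpin 2 array of day 9 alone high, and differed by 0.15 ± 0.32, or by −0.12 without that array. Its other probe had the same shape, with −0.65, −0.61 and 0.31 at day 9 and −0.20, −0.52 and −0.47 at day 12. E2f3 differed by −0.25 ± 0.29, and by −0.01 without the hairpin 2 array of day 9, and its 3 probes gave −0.25 to 0.11.

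At the passage from G1 to S, 2 of 6 members (Ccne1 and Ccna1) were higher and 4 lower in the knockdown (median −0.19), none called. Ccne2, encoding a cyclin E, read −1.71, −1.81 and −4.42 at day 9 and −1.55, −1.97 and −1.95 at day 12. All 4 knockdown arrays were below both controls, with differences from the control of the same day of −0.42 to −0.10 for 3 of them and −2.71 for the hairpin 2 array of day 9. The difference was −0.91 ± 0.70 (SE; limma, adjusted p = 0.715); it was −0.28 without that array and −0.34 with normexp background correction, which compresses dim probes. The second probe of Ccne2 was also lowest on that array, at −4.99 beside −3.11 to −2.78 on the other 5. Ccna1, a cyclin A best known from the male germ line and named here after its values were seen, read −1.13, −0.76 and −0.68 at day 9 and −1.37, −0.62 and −0.99 at day 12. All knockdown arrays were above both controls (0.49 ± 0.16 SE; limma, adjusted p = 0.429). Ccne1 differed by 0.08 ± 0.14, Ccna2 by −0.13 ± 0.14, Cdk2 by −0.25 ± 0.15 and Cdc25a, a phosphatase that activates CDK2, by −0.31 ± 0.20. The other probe of Ccne1 gave −0.10, so its direction depended on the probe. By the probe that stands for Ccne1, hairpin 1 and hairpin 2 were above the control at day 9 (0.30 and 0.13). At day 12 they were slightly below it (−0.06 and −0.07).

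Replication licensing loads the MCM helicase onto origins. Of 6 members 2 were higher and 4 lower (median −0.08), none called. Mcm2, a subunit of the helicase, read 3.08, 2.81 and 3.37 at day 9 and 3.45, 2.83 and 2.77 at day 12. The control of day 12 was the highest array and the 3 knockdown arrays other than hairpin 2 at day 9 lay close together, at 2.77 to 2.83. The difference was −0.32 ± 0.23 (SE; limma, adjusted p = 0.703). It was 0.02 without the control array of day 12, that is at day 9 alone. Cdc6 and Cdt1, which load the helicase, differed by −0.19 ± 0.14 and 0.12 ± 0.15. Gmnn (geminin), which blocks Cdt1, differed by −0.06 ± 0.17, Mcm5 by 0.14 ± 0.19 and Pcna, the sliding clamp of DNA polymerases, by −0.11 ± 0.15.

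For entry into mitosis, 2 of 6 members were higher and 4 lower (median −0.04). Ccnb1 and Ccnb2, the B-type cyclins, differed by −0.20 ± 0.18 and −0.09 ± 0.14, and their partner Cdk1 by −0.02 ± 0.20. Wee1, the kinase that inhibits CDK1, differed by −0.06 ± 0.15, and the phosphatase genes Cdc25b and Cdc25c by 0.14 ± 0.28 and 0.23 ± 0.21. Of the 8 genes of mitosis and proliferation 6 were lower and 2 higher (Bub1 and Bub1b), with a median of −0.05 and none called. The largest difference was that of Plk1, the Polo-like kinase, at −0.26 ± 0.16 (SE; limma, adjusted p = 0.663), lower than the control of the same day on all 4 knockdown arrays. Bub1b was higher through the hairpin 2 array of day 9 alone: the differences from the control of the same day were −0.14 and 0.73 at day 9 and −0.24 and −0.22 at day 12 for hairpin 1 and hairpin 2, and the fitted difference turned from 0.04 to −0.19 without that array. Aurkb turned the other way, so that 6 of the 8 were again lower. At day 9 alone 6 of the 8 were lower, and at day 12 alone 4 of the 8. The proliferation marker Mki67 differed by −0.06 ± 0.14, Top2a, the topoisomerase of chromosome condensation, by −0.17 ± 0.24 (−0.35 without the hairpin 2 array of day 9), and Cdc20 by −0.07 ± 0.14. The other probes of Top2a gave −0.59 and −0.04. The 95% intervals were −0.41 to 0.29 for Mki67 and −0.40 to 0.27 for Cdc20.

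**Figure D3:**
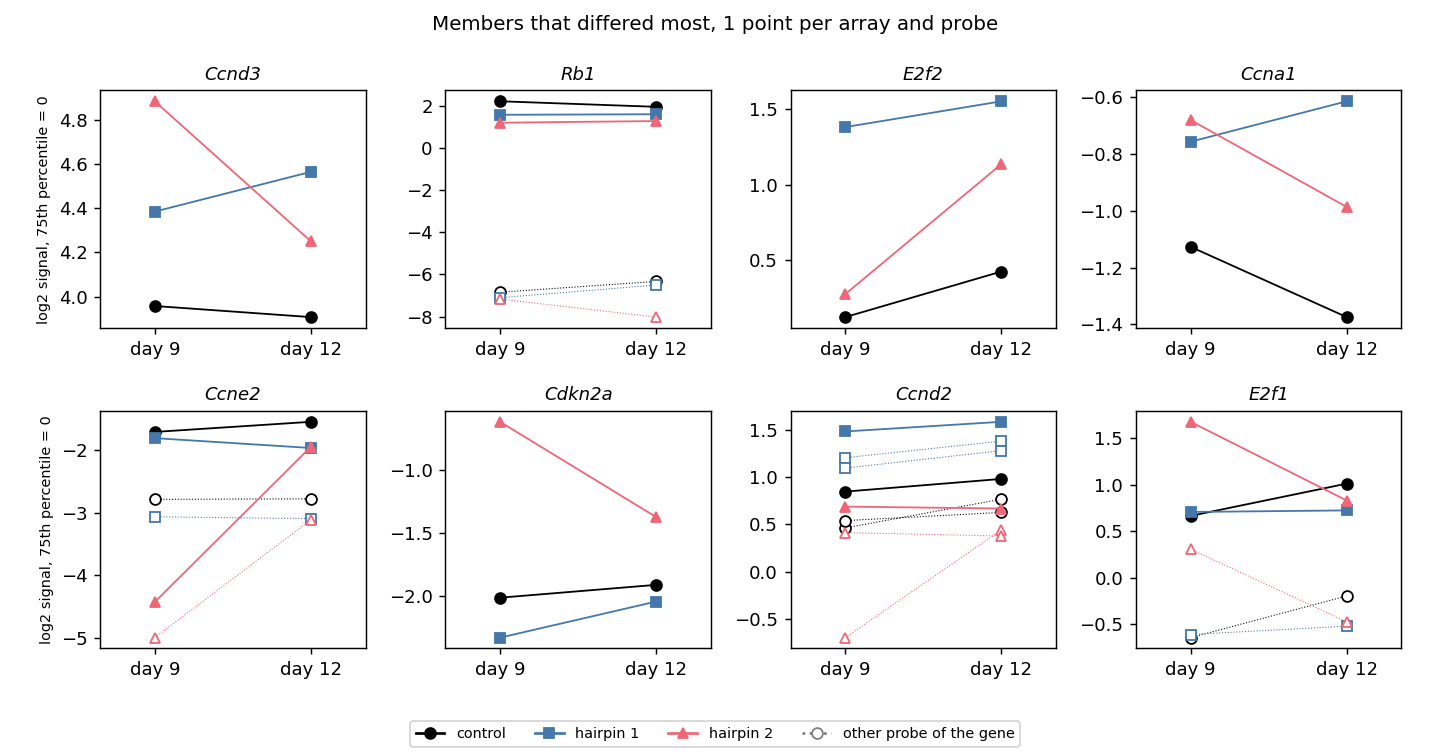
Each panel shows 1 gene, with 1 point per array and lines joining the same vector at day 9 and day 12; filled symbols are the probe that stands for the gene and open symbols its other kept probes, on a log2 axis with the 75th percentile at 0. Ccnd3 and Rb1 are separated by vector at both days, while Ccne2, Cdkn2a and E2f1 turn on the hairpin 2 array of day 9.

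Tested at each day alone, the knockdown difference was called for no member at day 9 or day 12 (limma), where 0.0% of all genes were called at either day. At an unadjusted p under 0.05 there was 1 member at day 9 (Rb1, −0.83 ± 0.29 SE), beside 4.3% of all genes, and 0 at day 12, beside 5.09%. The difference of the knockdown effect between the days was called for 0 members (0.0% of all genes; 0.312% with the vector as a block, and again no member), and for 0 at an unadjusted p under 0.05, beside 1.73%. These tests were coarse, with a median standard error of 0.27 for a member at 1 day and 0.39 for the difference between days. For Rb1 the difference was −0.51 ± 0.29 at day 12, and for Ccnd3 it was 0.68 ± 0.31 at day 9 and 0.50 ± 0.31 at day 12.

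The next comparison set day 12 against day 9 within the same vectors. More members were lower than higher at day 12, 29 against 13 (69.0% lower, beside 49.5% of all genes), with a median of −0.11 beside 0.0026 for all genes. Of the phase groups, mitosis was the most even, with 7 of 8 members lower. No member was called (limma, lowest adjusted p = 0.172), where 0.148% of all genes were called; with the vector as a block 1.62% of all genes were called and again no member, with a lowest adjusted p of 0.126. At an unadjusted p under 0.05 there were 4 members, all lower (Ccnd1, Cdk6, Plk1 and Cdc20), beside 12.0% of all genes. Compared vector by vector, 14 members were lower at day 12 in all 3, beside 19.6% of all genes, and 2 were higher in all 3, beside 20.6%. The days did not overlap for 8 members: Ccnd1, Cdk6, Cdk2, Cdc25c, Plk1, Aurka, Cdc20 and Mki67, beside 17.1% of all genes. Of these 8 all but Cdk2 were lower at day 12, beside 8.13% of all genes with day 12 below day 9. Germ cell markers were higher at day 12 for 7 of 11 genes, Dazl included (median 0.29). They summed to 107 to 201 at day 9 and 179 to 268 at day 12. Pluripotency markers were lower for 7 of 10 (median −0.16) and summed to 747 to 862 and 611 to 798. The part of these cell types in the day differences was not tested.

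In G1, Cdk6 had the lowest adjusted p. It read −0.23, 0.15 and 0.08 at day 9 and −0.72, −0.38 and −0.51 at day 12 for control, hairpin 1 and hairpin 2. Every vector was lower at day 12, with differences of −0.59 to −0.49, and the days did not overlap. The mean was 0.00 ± 0.20 (SD, n = 3) at day 9 and −0.54 ± 0.17 (SD, n = 3) at day 12, a difference of −0.54 ± 0.12 (SE; limma, adjusted p = 0.172). Its 3 probes gave −0.54, −0.47 and −0.11. Ccnd1, encoding cyclin D1, read 0.32, 0.53 and 0.52 at day 9 and −0.04, 0.10 and −0.09 at day 12. It too was lower in every vector, with differences of −0.61 to −0.35, and the fitted difference was −0.46 ± 0.13 (SE; limma, adjusted p = 0.250). Ccnd2 and Ccnd3 differed by 0.07 ± 0.31 and −0.17 ± 0.19, and Cdk4 by 0.04 ± 0.25; without the hairpin 2 array of day 9 these were −0.15, −0.01 and 0.30.

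Among the inhibitors 4 of 5 were lower, with differences of −0.24 to −0.07, and Cdkn2c was higher. The probe that stands for Cdkn1b gave −0.24, and its other probes 0.06 and −0.10. Cdkn2c, with the array values given above, differed by 0.38 ± 0.25 (SE; limma, adjusted p = 0.627), of which the hairpin 2 arrays contributed 0.86, hairpin 1 0.32 and the control −0.05; without the hairpin 2 array of day 9 the difference was 0.10. Of the RB and E2F genes 4 of 6 were lower (median −0.01), and the largest difference was that of E2f2, 0.45 ± 0.31 (SE; limma, adjusted p = 0.637), which was higher at day 12 in all 3 vectors and 0.11 without the hairpin 2 array of day 9. Rb1 differed by −0.05 ± 0.18. E2f1 turned from −0.16 to 0.19 without the hairpin 2 array of day 9. In the group of G1/S and S phase 3 were higher and 3 lower (median −0.05): Ccne2 differed by 0.83 ± 0.66, with 0.16 in the control, −0.16 with hairpin 1 and 2.48 with hairpin 2, and by −0.01 without the hairpin 2 array of day 9. Cdk2 read −2.89, −2.90 and −3.21 at day 9 and −2.50, −2.86 and −2.80 at day 12, higher in every vector (0.28 ± 0.14 SE; limma, adjusted p = 0.515).

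The licensing group had no common direction: 3 were higher and 3 lower, with a median of −0.0011, while normexp background correction gave 5 higher and 1 lower. Pcna had its largest difference, with 5.14, 5.16 and 4.93 at day 9 and 5.38, 5.16 and 5.36 at day 12 (0.22 ± 0.14 SE; limma, adjusted p = 0.602). The control and hairpin 2 were higher at day 12 and hairpin 1 was level. The other licensing members stayed within −0.07 to 0.14.

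Genes that take the cell into mitosis and through it were mostly lower at day 12. Of the 6 genes of G2/M entry 5 were lower (median −0.19), and of the 8 genes of mitosis and proliferation 7 were lower (median −0.32), 6 of them in all 3 vectors. Plk1, which drives mitotic entry and spindle assembly, read 4.93, 4.51 and 4.83 at day 9 and 4.49, 4.11 and 4.37 at day 12. The vectors differed by −0.46 to −0.40, and the lowest array of day 9 was above the highest of day 12. The mean was 4.76 ± 0.22 (SD, n = 3) and 4.32 ± 0.20 (SD, n = 3), a difference of −0.43 ± 0.15 (SE; limma, adjusted p = 0.354).

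Cdc20, the activator of the anaphase-promoting complex, read 6.37, 6.30 and 6.18 at day 9 and 5.95, 5.88 and 6.02 at day 12. Every array of day 12 was below every array of day 9 (−0.34 ± 0.13 SE; limma, adjusted p = 0.384). Aurka, the centrosomal Aurora kinase, read 5.60, 5.52 and 5.41 and then 5.22, 5.21 and 5.36, again without overlap (−0.25 ± 0.13). Mki67 read 4.92, 4.79 and 4.66 and then 4.48, 4.56 and 4.56, also without overlap (−0.26 ± 0.13). These 3 were named after their values were seen. Cdc25c, which removes the inhibitory phosphate from CDK1, read 1.08, 1.12 and 1.73 at day 9 and 0.81, 1.0 and 0.87 at day 12, with −0.87 to −0.12 in the vectors (−0.42 ± 0.19 SE; limma, adjusted p = 0.473). The hairpin 2 vector gave the −0.87, and without its array of day 9 the difference was −0.22.

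The remaining genes of these groups were less even. Aurkb, the kinase of the chromosomal passenger complex, read 1.93, 1.66 and 1.37 and then 1.10, 1.38 and 1.55: the control and hairpin 1 were lower at day 12 and hairpin 2 was higher. Top2a differed by −0.38 ± 0.22 and Bub1b, a kinase-like protein of the spindle checkpoint, by −0.43 ± 0.26. Ccnb1 and Cdk1 differed by −0.22 ± 0.17 and −0.26 ± 0.19. By the probe that stands for the gene, all 4 were lower in all 3 vectors. By these probes hairpin 2 carried most of Top2a and Bub1b. Top2a differed by −0.04 in the control, −0.28 with hairpin 1 and −0.81 with hairpin 2, and Bub1b by −0.08, −0.18 and −1.02. Another Top2a probe did not have this shape. It read −0.75, −1.12 and −1.68 at day 9 and −1.16, −1.80 and −1.60 at day 12, so only control and hairpin 1 were lower. The fitted differences of the other Top2a probes were −0.34 and 0.01. Without the hairpin 2 array of day 9 the differences were −0.14 for Top2a, −0.13 for Bub1b, −0.10 for Ccnb1 and −0.08 for Cdk1. Bub1, another checkpoint kinase, was the exception among mitotic genes, at 0.19 ± 0.18 (0.04 without that array). The median over the 8 mitotic genes was −0.40 in the control, −0.28 with hairpin 1 and −0.13 with hairpin 2, beside −0.02, −0.01 and 0.07 for all genes. The count of 7 lower among 8 was found under every setting tried, also with each array left out in turn. Several of these settings could not change it. The trended robust prior and the vector block leave the fitted day differences as they are, and the filters kept the same probes of these genes. Leaving out either control array gives the same day fit, that of the hairpin arrays alone.

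**Figure D4:**
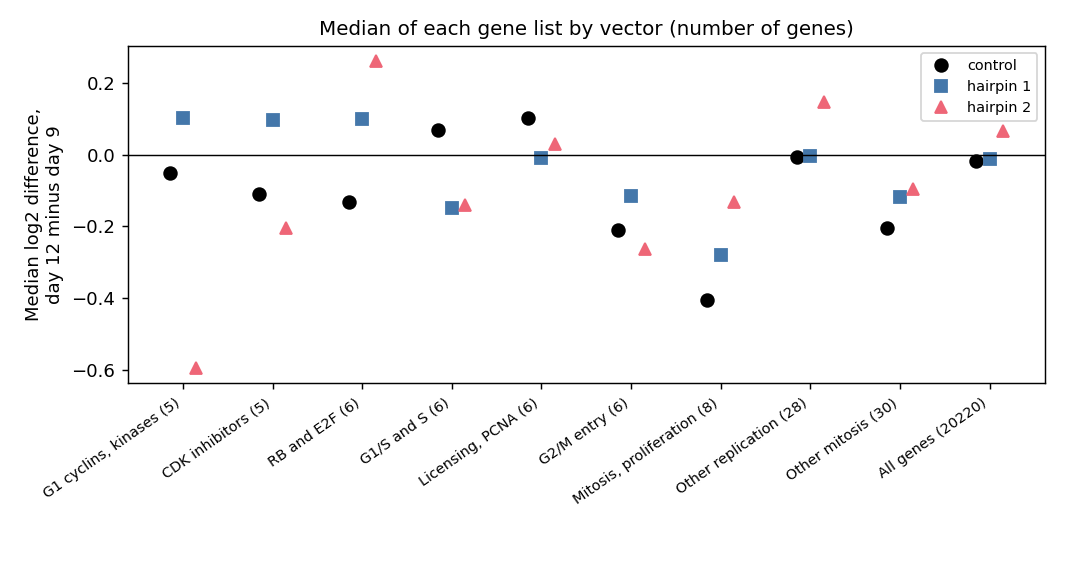
For each gene list, points show the median log2 difference of day 12 against day 9 in the control, hairpin 1 and hairpin 2 arrays; numbers in brackets count the genes. The mitosis list lies below 0 in all 3 vectors (−0.40, −0.28 and −0.13), while the list of all genes lies near 0.

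Cell cycle genes are known to share promoter elements: E2F sites in genes of G1/S and replication, and the cell cycle genes homology region (CHR) with CCAAT boxes in genes of G2 and mitosis. Because the genes of mitosis shared a direction between the days, promoters were read from RefSeq (build GRCm38.p6) for the 250 bases before the start site. Entries were found for 33 of the 42 members, with 39 promoters in all. The motifs searched on both strands were TTTCCCGC, TTTGGCGC, TTTCGCGC and TTTGCCGC for an E2F site, TTTGAA for a CHR and CCAAT for a CCAAT box, and no matches of different motifs overlapped in the members. An E2F site was found in 20.5% of the member promoters and 1.86% of all 32851 promoters, a CHR in 25.6% and 16.0%, and a CCAAT box in 56.4% and 33.8%. By phase, all 7 promoters of the mitosis group and all 4 of the G2/M entry group held a CCAAT box, a CHR stood in 3 of 7 and 2 of 4, and an E2F site in 0 of 7 and 1 of 4. E2F sites stood in 2 of 5 licensing promoters (Mcm5 and Cdc6), 2 of 4 promoters of G1/S and S phase (Cdc25a and Cdk2) and 2 of 7 of the RB and E2F group (E2f3 and Rbl1). A match describes letters in this window and is not a shown binding site. A window follows the start site of its entry and can miss other start sites of the gene. That of E2f1 appears to lie in its coding sequence, so the lack of matches there does not cover a promoter further upstream. One of the E2f2 windows (chr4:136180532-136180781) also appears to begin in coding sequence. Its CHR and 3 CCAAT boxes, counted in the shares above, may therefore not lie in a promoter.

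The 4 promoters printed here show the arrangements found, from the 5′ end to the base before the start site, with every motif match in capitals; a match on the other strand reads as its reverse complement, such as ATTGG for CCAAT. That of Cdk1 (chr10:69352913-69353162, minus strand) held all 3 kinds, with an E2F site 131 bases before the start, CHRs at 71 and 15 and CCAAT boxes at 208, 80 and 48. Cdc20 (chr4:118437344-118437593, minus strand) and Top2a (chr11:99024190-99024439, minus strand) hold CHR and CCAAT boxes without an E2F site, as 3 of the 7 mitosis promoters do (Mki67 is the other). Mcm5 (chr8:75109259-75109508, plus strand) is 1 of the 2 licensing promoters among 5 with an E2F site, with E2F matches that overlap each other at 153 and 149 bases before the start.
Cdk1: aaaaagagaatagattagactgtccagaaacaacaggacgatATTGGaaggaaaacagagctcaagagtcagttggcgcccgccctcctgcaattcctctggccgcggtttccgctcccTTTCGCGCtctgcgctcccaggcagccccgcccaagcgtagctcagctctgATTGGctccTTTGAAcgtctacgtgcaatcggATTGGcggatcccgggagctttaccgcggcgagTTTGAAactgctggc
Cdc20: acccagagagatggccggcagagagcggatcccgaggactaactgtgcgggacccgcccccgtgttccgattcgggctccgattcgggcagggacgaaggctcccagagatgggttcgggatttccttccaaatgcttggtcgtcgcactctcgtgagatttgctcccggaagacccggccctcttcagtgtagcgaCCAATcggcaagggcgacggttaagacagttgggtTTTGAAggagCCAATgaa
Top2a: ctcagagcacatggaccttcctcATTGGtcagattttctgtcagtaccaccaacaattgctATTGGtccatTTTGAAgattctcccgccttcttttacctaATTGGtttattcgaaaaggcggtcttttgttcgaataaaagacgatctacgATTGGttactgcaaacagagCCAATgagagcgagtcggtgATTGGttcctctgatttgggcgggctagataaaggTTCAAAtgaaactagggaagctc
Mcm5: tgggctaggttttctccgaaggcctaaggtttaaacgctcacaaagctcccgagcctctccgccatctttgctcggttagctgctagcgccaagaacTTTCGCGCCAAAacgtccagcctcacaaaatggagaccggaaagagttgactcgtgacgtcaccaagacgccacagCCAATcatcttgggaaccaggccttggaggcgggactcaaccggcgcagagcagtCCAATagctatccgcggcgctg

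**Figure D5:**
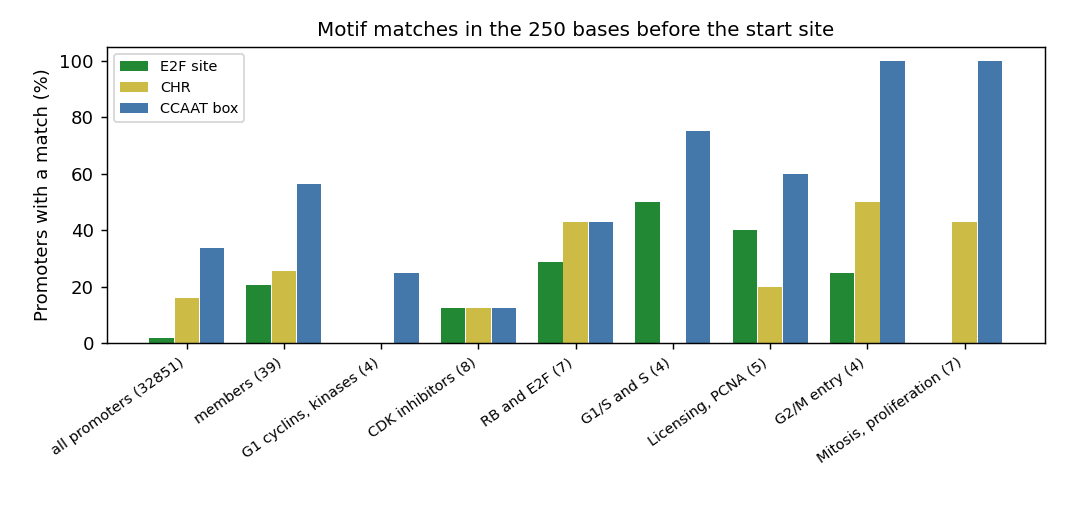
Bars give the percentage of promoters with at least 1 match to each motif, for all 32851 promoters of the table, for the 39 member promoters and for each phase list, with the number of promoters in brackets. The CCAAT box bars of the G2/M entry and mitosis lists reach 100% on 4 and 7 promoters, beside 33.8% of all promoters.

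Hairpin 2 was also set against hairpin 1, since both target Dazl. Members ran evenly both ways, 21 higher and 21 lower with hairpin 2 (47.4% of all genes lower), and none was called (limma, lowest adjusted p = 0.142), where 0.0692% of all genes were called. At an unadjusted p under 0.05 there were 4, Ccnd2 and E2f2 lower and Cdkn2a and Cdk4 higher with hairpin 2, beside 11.7% of all genes. Ccnd2 differed by −0.79 at day 9 and −0.92 at day 12 (−0.85 ± 0.16 SE; limma, adjusted p = 0.142), and its 3 probes gave −1.42 to −0.79. E2f2 differed by −1.11 and −0.42 (−0.76 ± 0.22 SE; limma, adjusted p = 0.285). Cdkn2a differed by 1.71 and 0.67 (1.19 ± 0.28 SE; limma, adjusted p = 0.204). Ccne2 differed by −2.61 and 0.02, that is at day 9 alone (−1.30 ± 0.62 SE; limma, adjusted p = 0.484), and by −0.06 without the hairpin 2 array of day 9. For Ccnd2 and Cdkn2a the hairpins lay on opposite sides of the control at both days. With a control array left out, which leaves these differences as they are and changes only the estimate of the spread, Ccnd2, Ccne2 and Cdkn2a were called (limma, adjusted p = 0.0434, 0.0378 and 0.00759), and so were 4.05% of all genes. Without the hairpin 1 array of day 12, Ccne2 and Cdkn2a were called, beside 1.75% of all genes. Without the hairpin 1 array of day 9 no member was called, beside 0.905% of all genes, and without either hairpin 2 array 0.0% of all genes were called.

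A wider set of 77 cell cycle genes that are not members was set beside them. In the knockdown 55 of the 77 were lower, and at day 12 46 of the 77, with none called in either comparison (limma, lowest adjusted p = 0.373 and 0.303). Of 30 further genes of mitosis, 24 were lower in the knockdown (median −0.10). At day 12 26 were lower (median −0.09), 14 of the 30 in all 3 vectors. By vector 28 were lower at day 12 in the control, 25 with hairpin 1 and 18 with hairpin 2. This day count ran from 19 to 27 with an array left out and from 22 to 27 under the other settings. Genes of chromosome 1, which holds no member, had a median knockdown difference of −0.18 over 913 genes, with −0.26 to −0.09 in the 4 comparisons of a hairpin with its control. Without its 3 genes the counts were 21 of 27 in the knockdown and 23 of 27 at day 12. The knockdown count came mostly from day 9, where 23 of the 30 were lower. At day 12 alone 16 of the 30 were lower. Of 28 further replication genes 17 were lower in the knockdown (median −0.07) and 19 were higher at day 12 (median 0.05). By vector, hairpin 2 had 19 of 28 higher (median 0.15), while the control had 14 higher and 14 lower (median −0.01) and hairpin 1 had 13 higher and 15 lower (median −0.0035). Without the hairpin 2 array of day 9, 17 of the 28 were higher (median 0.04). Of 19 further genes of G1 and E2F control 14 were lower in the knockdown (median −0.08) and 11 at day 12 (median −0.05). Against the control of the same day, 17 of the 19 were lower with hairpin 2 at day 9 (median −0.30). In the other comparisons of a hairpin with its control 10 or 11 were lower. By day 14 were lower in the control and 11 with hairpin 1, while 12 were higher with hairpin 2 (median 0.19). Among the largest values in these lists were those of Cdkn3, a CDK-associated phosphatase (−0.55 ± 0.16 in the knockdown and −0.47 ± 0.15 at day 12), Tfdp1, the partner of E2F in binding DNA (−0.49 ± 0.17 in the knockdown), and Tk1, thymidine kinase (0.36 ± 0.17 at day 12), with limma adjusted p = 0.373, 0.303, 0.437 and 0.473.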

How the data were processed

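Total RNA of 6 samples was hybridised to Agilent 1-colour arrays and scanned with Feature Extraction, per the file headers; background was subtracted and processed intensity values were deposited per spot, as the authors' scanner files. The authors also deposited a series table of ratio values, which matched the background-subtracted signal over the array median for all 41529 entries, and a quality score whose making is not given in the sources used here. Here log2 of the processed intensity was taken and the 75th percentile of each array over probes (629 to 745) set to 0; the deposited values carry no log2 step. Control spots and 0 to 18 outlier spots per array were left out. A probe was kept where at least 2 of the 6 arrays read it well above background (30190 probes, 20220 genes, brightest probe per gene). Genes were named through RefSeq accessions or symbols. Differences were fitted with limma 3.58.1 (R 4.3.3; lmFit, eBayes, two-sided, Benjamini-Hochberg adjustment over all genes, threshold 0.05): knockdown and day together, 4 groups for single days, and day with vector for the hairpins. With 1 control array per day, the lone array is assumed to vary like the others. Arrays of the same vector deviated together across days (r = 0.38 for control, 0.54 for hairpin 1 and 0.26 for hairpin 2, all other pairs −0.34 to −0.02), so the vector pairs the arrays and a fit with it as a block is given where it matters. In the knockdown comparison this block leaves the spread between the hairpins out of the error, so its p-values there are less cautious. The fit without the block counts the arrays as independent, so its intervals for the knockdown may be too narrow. The number of arrays limits the precision.

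The members and gene lists were chosen with earlier results of these data known. Array values are printed for the 3 members with the largest difference in the knockdown, day and hairpin comparisons and the largest of each phase list; others named with values on every array (Ccna1, E2f1, Cdk2, Cdc20, Aurka, Aurkb, Mki67) were chosen after their values were seen. Alternatives were normexp background correction (offset 50), quantile normalization, stricter and no filters, other uses of probes, the deposited table, a trended robust prior, the vector as a block and each array left out. The fit was tested on simulated data with known differences. Promoter sequences were read from RefSeq for 33 members; those of 9 members (Wee1, Ccnd1, Ccne2, Ccna2, Ccnd2, Cdc25c, Rb1, Gmnn and Aurkb) were not used here.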

Additional observations from a re-analysis of the deposited data

Results flagged for a closer look

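Among the 4 knockdown arrays, 1 array lay far from the other 3 for 4 of the 42 members, by a test that compares its gap with the range of the group. About 1 in 20 groups is picked out this way by chance, or 2.1 of 42. In each of the 4 it was the hairpin 2 array of day 9. E2f1 read 1.67 there and 0.71 to 0.83 on the others. Ccne2 read −4.42 there and −1.97 to −1.81 on the others. Mcm2 read 3.37 against 2.77 to 2.83. Bub1b read 3.29 against 2.25 to 2.42. The same array was at an end of the 6 arrays for 55.3% of all genes.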

How the results depend on the processing

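No member was called in the knockdown or day comparison (limma) under any setting tried, nor with a replicate block for the vector, in which 20 and 328 of all genes were called beside 0 and 30 without it; the block changed no call of a member. With normexp background correction the median of all genes in the knockdown, day and hairpin comparisons was 0.12, −0.12 and 0.18. Calls over all genes in these comparisons were then 2, 1 and 119. They were 0, 24 and 1 with quantile normalization, 8, 35 and 51 with the strict filter, 0, 0 and 1 without a filter, 1, 29 and 2 with probes averaged, 2, 17 and 1 by probe, 0, 22 and 2 from the deposited table, and 2, 24 and 71 with the trended robust prior. In the hairpin comparison 0 to 3 members were called with an array left out, beside 0 to 819 of all genes. With some array left out, 22 of the 42 members changed sign in the knockdown, 16 by day and 23 between the hairpins. Of the values chosen by the naming rule, 3 reversed. With each array left out, Ccne2 by day ran from −0.015 to 1.48 and Cdkn2a in the knockdown from −0.020 to 0.71, reversed without the hairpin 2 array of day 9. Mcm2 in the knockdown ran from −0.65 to 0.016, reversed without the control array of day 12. Members lower in the knockdown numbered 19 to 23 and lower at day 12 26 to 32. With a control array left out, the knockdown at that day and the difference between days could not be estimated. The knockdown difference is then that of the other day alone. All 6 arrays limit the bounds on a difference, and 5 members reach past 2-fold in the knockdown and 5 by day. Leaving out chromosome 1 genes was chosen after seeing the data.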
